A study of Mus musculus with 10 samples.

Results

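The NF-κB subunits and their inhibitors were followed in mouse regulatory T cells (Treg cells), the CD4 T cells that restrain immune responses, sorted by the presence of Helios, a zinc finger transcription factor encoded by Ikzf2. The set held 10 genes taken by symbol, and it was chosen with earlier results of these data known. It comprised the 5 Rel family subunits Nfkb1, Nfkb2, Rel, Rela and Relb and the 5 inhibitors Nfkbia, Nfkbib, Nfkbid, Nfkbie and Nfkbiz. All 10 were among the 13252 genes of the table, and all 10 passed the filter of a mean of at least 10 normalized counts (reads divided by a size factor per library) that left 10718 genes for testing.

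RNA-seq libraries were available from 2 sorted populations, with 5 in each. CD4+RFP+GFP+ cells were labelled Helios+ and CD4+RFP+GFP- cells Helios−, so both share CD4 and RFP and differ in GFP. The sources used here do not say what RFP reports, which strain, age and genotype the mice had, or whether the libraries of a group came from separate mice. The p-values therefore measure the spread between these libraries, which may be technical. The design text speaks of wild-type and knockout cells, but the sample labels describe a sort, and a difference below is one between sorted populations, not an effect of removing Helios.

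NF-κB is a family of dimeric transcription factors. Rela, Rel (c-Rel) and Relb carry domains that activate transcription, while Nfkb1 and Nfkb2 encode precursors that are processed to DNA-binding partners without such a domain. The classical inhibitors IκBα (Nfkbia), IκBβ (Nfkbib) and IκBε (Nfkbie) hold dimers in the cytoplasm until the IκB kinase (IKK) marks them for degradation, whereas IκBNS (Nfkbid) and IκBζ (Nfkbiz) act in the nucleus. In the noncanonical branch the kinase NIK (Map3k14) triggers processing of the Nfkb2 product, which releases its dimers with Relb. In the Treg lineage c-Rel takes part in the induction of Foxp3 in the thymus, and several inhibitor genes are themselves targets of NF-κB.

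Libraries held between 4872348 and 6948692 reads, and Rn45s, the ribosomal RNA precursor, took between 8.54% and 18.6% of them. Ikzf2 lay between 418 and 572 normalized counts in the Helios− libraries and between 9667 and 10906 in the Helios+ libraries (exact two-sided permutation p = 0.0079, the smallest this design allows), as the labels of the sort say. Foxp3 and Cd4 did not differ beyond their spread (exact permutation p = 0.754 and 0.667), and Cd3e, Il2ra, Ctla4 and Ikzf4, the other Treg markers checked, were present in every library. Of these 6 markers 3 (Il2ra, Ctla4 and Ikzf4) were called higher in Helios+ cells, where 14.1% of all genes tested were. Foxp3 shares 31.5% of its exon bases with other genes, some on the other strand, so some of its reads may belong to those.

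Promoter sequences are shown for some members that rose and for Rela, which was not called, because NF-κB binds its own family's genes at κB sites. Nfkbid, which was not called either, also held matches and is described below without its sequence. RefSeq windows of GRCm38.p6, from 250 bases before to 50 after a transcription start, matched 7 of the 10 members, all but Nfkb1, Relb and Nfkbiz. The κB consensus was searched on both strands, and 4.51% of 32851 windows of all genes held a match. Capitals mark matches to the consensus, and the stretches below lie before the start and outside annotated exons. Nfkbia was read at chr12:55492648-55492897, Rel at chr11:23770971-23771219 (both minus strand), Nfkbie at chr17:45555450-45555699 and Rela at chr19:5637291-5637482 (both plus strand).
Nfkbia: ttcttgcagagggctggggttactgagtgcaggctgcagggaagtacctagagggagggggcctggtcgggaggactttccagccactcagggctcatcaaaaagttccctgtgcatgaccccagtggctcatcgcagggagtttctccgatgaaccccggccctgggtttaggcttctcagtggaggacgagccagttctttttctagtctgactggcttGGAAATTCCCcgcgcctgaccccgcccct
Rel: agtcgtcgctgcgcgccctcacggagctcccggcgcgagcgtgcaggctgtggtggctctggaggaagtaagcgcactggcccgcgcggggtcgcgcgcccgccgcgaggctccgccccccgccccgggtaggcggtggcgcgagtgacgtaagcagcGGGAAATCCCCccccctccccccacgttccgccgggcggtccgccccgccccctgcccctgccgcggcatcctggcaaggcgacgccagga
Nfkbie: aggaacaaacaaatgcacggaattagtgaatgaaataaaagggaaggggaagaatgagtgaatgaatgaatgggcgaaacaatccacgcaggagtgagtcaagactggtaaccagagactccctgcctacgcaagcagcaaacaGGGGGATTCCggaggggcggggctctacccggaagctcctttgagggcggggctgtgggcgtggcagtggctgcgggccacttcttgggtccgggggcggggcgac
Rela: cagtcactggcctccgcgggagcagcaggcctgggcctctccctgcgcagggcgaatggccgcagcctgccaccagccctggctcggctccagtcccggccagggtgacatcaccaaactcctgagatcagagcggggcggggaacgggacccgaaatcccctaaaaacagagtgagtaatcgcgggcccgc

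The match in Nfkbia began 29 bases before the start and read GGGAATTTCC on the other strand. The run in Rel began 92 bases before the start and held GGGAAATCCC and, on the other strand, GGGGATTTCC. Nfkbie had GGGGGATTCC from 106 bases before its start. Nfkb2 has 3 windows, and all held matches. They include GGGAATTCCC and GGGGCTTTCC, beginning 39 and 11 bases before the first start, and GGGACTTTCC at chr19:46305705-46305714, which lies in both other windows. Nfkbid, which was not called, held GGGACTTCCC and, on the other strand, GGGGAATTCC in 1 of its 3 windows. No match was found in the single windows of Rela and Nfkbib. In all, 5 of the 7 members with windows held a match, beside 5.14% of 27025 genes with windows. Of these 5 members 4 were among the genes called higher below. A match describes letters in this window and does not show binding.

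Most of the family was higher in Helios+ cells. Of the 10 members, 6 were called higher (Nfkb1, Nfkb2, Rel, Relb, Nfkbia and Nfkbie) by limma at an adjusted p under 0.05, against 14.1% of all genes tested called higher and 24.8% called in either direction. None was lower, where 10.7% of all genes were. These shares are a description, since the set was chosen with earlier results of these data known. The count of lower members was 0 also at an unadjusted p under 0.05, and 0 with edgeR and with DESeq2, both of which called 6 higher. The differences were small, with log2 changes of 0.25 to 0.51 among the members that rose. The median log2 change over the 10 members was 0.29, beside −0.02 over all genes tested. The groups did not overlap for 4 members, all subunits and all higher. Of all genes tested, 11.2% had groups apart with Helios+ higher, 8.37% with Helios+ lower and 19.5% in either direction. With the replicate number as a block, the same 6 members were called, where 37.3% of all genes were. Each of the 6 was higher in the Helios+ library of all 5 replicate pairs, a pattern seen for 19.8% of all genes tested. Throughout, a log2 change is the mean of log2(normalized count + 1) in Helios+ libraries less that in Helios− libraries.

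**Figure D1:**
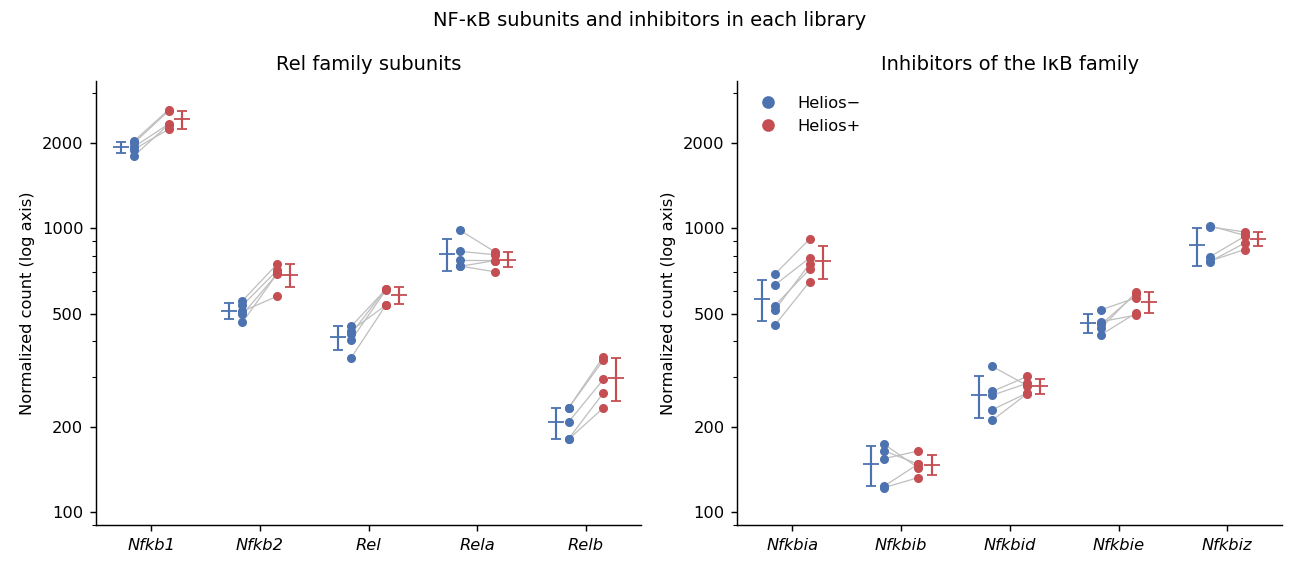
Normalized counts (log axis) of the 5 Rel family subunits (left) and 5 inhibitors (right), with 1 point per library (5 per group), grey lines joining libraries of the same replicate number and bars for the mean and SD. Nfkb1, Nfkb2, Rel and Relb separate the groups, while Rela and all 5 inhibitors overlap.

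Markers of other cells were measured beside these genes, since B cells and dendritic cells also express Relb and inhibitor genes. The summed level of 9 B cell genes was 1908 to 2643 normalized counts in Helios− and 1663 to 2315 in Helios+ libraries. Over all genes tested, limma called 14.1% higher and 10.7% lower. Of the B cell genes limma called 0 higher (0 at an unadjusted p under 0.05) and 1, Ebf1, lower. With edgeR and with DESeq2, 0 of these B cell genes were higher. The most abundant were Cd22 (472 ± 121 in Helios−, 408 ± 101 in Helios+, SD, n = 5) and Ms4a1 (333 ± 35.4 and 296 ± 47.1). The sum over 17 myeloid and dendritic genes was 2764 to 3747 and 2921 to 3635. Most of it was Cd74 and H2-Aa, which B cells share, and 2 of 14 tested genes were higher, Csf1r (36.9 ± 5.84 and 61.6 ± 7.30) and Zbtb46 (6.70 ± 3.94 and 14.9 ± 4.03). Cd14 and Xcr1 had no read in some libraries, and their means were under 2 normalized counts. The sum over 8 genes of NK and CD8 T cells was 503 to 627 and 472 to 557. The most abundant were Cd8b1 (245 ± 33.2 and 202 ± 19.3) and Cd8a (141 ± 16.5 and 128 ± 12.6). Of 7 tested, 0 were higher by limma, edgeR or DESeq2 (0 at an unadjusted p under 0.05) and 1 was lower, Klrk1 (31.9 ± 1.98 and 19.7 ± 5.88; limma adjusted p = 0.0251). The groups of Klrk1 and Gzma did not overlap, with Helios+ lower, as for 8.37% of all genes tested. With the replicate block 4 B cell genes and 2 NK and CD8 genes, Klrk1 and Cd8b1, were lower. In the same fit 3 myeloid and dendritic genes were higher, Csf1r, Zbtb46 and Lyz2. That fit called 18.9% of all genes higher and 18.5% lower. Lyz2 had 142 ± 32.8 and 188 ± 75.9 normalized counts (SD, n = 5) and was higher in all 5 pairs (limma adjusted p = 0.0175 with the block, 0.276 without it). The part of these cells in the differences was not tested. In bulk libraries fewer cells of a type and less RNA per cell cannot be told apart.

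Rel, which encodes c-Rel, had the smallest adjusted p of the family. Its Helios− libraries 1 to 5 had 436, 349, 451, 425 and 403 normalized counts, and its Helios+ libraries 535, 536, 609, 611 and 605. Every Helios+ library was above every Helios− library. The means were 413 ± 39.6 and 579 ± 39.9 (SD, n = 5), a log2 difference of 0.49 ± 0.08 (SE, limma adjusted p = 0.00028). Rel lies on chromosome 11 (23736847 to 23770970, minus strand, GRCm38), and no exon base is shared with another gene.

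Relb, the partner of processed Nfkb2 in the noncanonical branch, showed the largest change, also with the widest interval among the subunits. The Helios− libraries had 180, 181, 208, 232.6 and 232.6 normalized counts and the Helios+ libraries 232.6, 263, 293, 343 and 352. The groups touch, since the lowest Helios+ library lay above the highest Helios− library by less than 1 normalized count. The log2 change was 0.51 ± 0.12 (SE; limma adjusted p = 0.0056), with a 95% interval of 0.25 to 0.77. Within pairs the Helios+ library was 1.29 to 1.51 times its Helios− partner. Relb (chromosome 7, 19606217 to 19629438, minus strand) was the least abundant subunit in read number, with 154 to 353 reads per library.

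Nfkb2, the noncanonical precursor gene, had 497, 466, 534, 555 and 509 normalized counts in Helios− and 691, 693, 711, 748 and 576 in Helios+ libraries. Helios+ replicate 5 stood below the other 4 Helios+ libraries but above all Helios− libraries. The log2 change was 0.41 ± 0.08 (SE; limma adjusted p = 0.0010). Nfkb2 lies on chromosome 19 (46304320 to 46312385, plus strand), and shares 18.1% of its exon bases, among others with Psd on the other strand. Whether reads were counted by strand is not stated, so reads of such bases may belong to either gene.

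Nfkb1, the precursor gene of the canonical branch, had the most reads of the family. Its Helios− libraries had 1795, 1992, 2024, 1893 and 1933 normalized counts and its Helios+ libraries 2318, 2588, 2613, 2231 and 2327. The groups did not overlap, and the pairs were close to each other, with ratios from 1.18 to 1.30. This was a change of 0.32 ± 0.07 on the log2 scale (SE; limma adjusted p = 0.0018). Nfkb1 spans 135584655 to 135691547 on chromosome 3 (minus strand).

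Rela, the activating subunit of the most common NF-κB dimer, was the subunit that limma did not call. It had 736, 734, 983, 829 and 770 normalized counts in Helios− and 702, 769, 826, 806 and 768 in Helios+ libraries. The groups overlapped, and Helios− replicate 3 was the highest of all 10. Its log2 change was −0.06 ± 0.08 (SE; limma adjusted p = 0.669), and 0.014 without Helios− replicate 3, so it has no set direction. The 95% interval ran from −0.24 to 0.12 and does not show that the level is equal. Rela lies on chromosome 19 (5637483 to 5648130, plus strand).

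**Figure D2:**
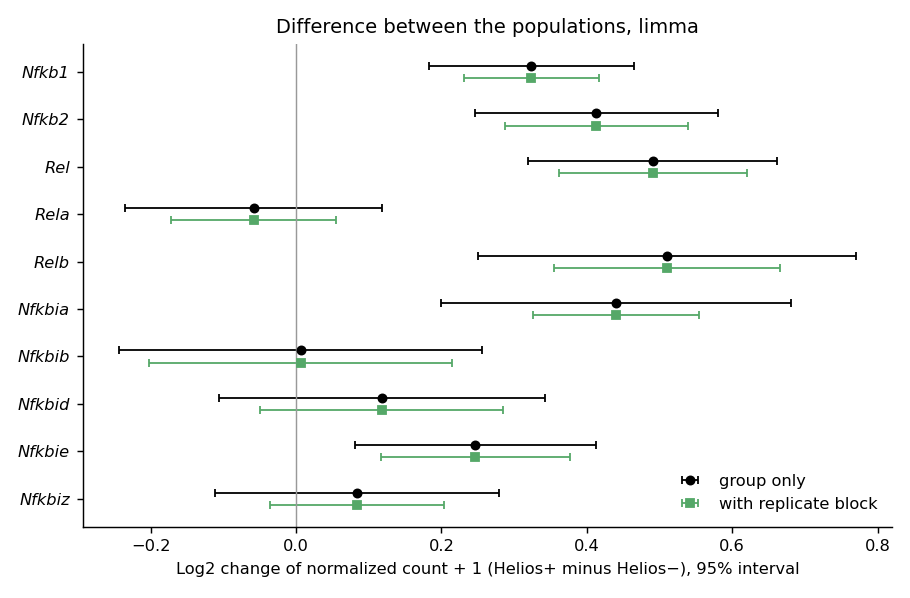
Log2 change of each of the 10 members (Helios+ less Helios−, on normalized count + 1) with 95% intervals from limma, for the fit with the group alone (black circles) and for the blocked fit (green squares). Both fits place 6 members above 0, and the intervals of Rela, Nfkbib, Nfkbid and Nfkbiz span 0; Nfkbib at 0.0065 turns negative with quantile normalization and with DESeq2.

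Of the classical inhibitors, Nfkbia changed most. It encodes IκBα, which NF-κB itself induces, a known negative feedback. The Helios− libraries had 456, 689, 631, 534 and 516 normalized counts and the Helios+ libraries 649, 917, 786, 718 and 749.9. The groups overlapped, since Helios− replicate 2 stood above Helios+ replicate 1, but each Helios+ library exceeded the Helios− library of its own number. The pair ratios were 1.25 to 1.45. The log2 change was 0.44 ± 0.11 (SE; limma adjusted p = 0.0092), and the call was lost without both libraries of replicate 5 (limma adjusted p = 0.0542). Nfkbia lies on chromosome 12 (55489410 to 55492647, minus strand).

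Nfkbie, the gene of IκBε, had 469, 421, 459, 516 and 445 normalized counts in Helios− and 494, 502, 585, 568 and 593 in Helios+ libraries. The lower 2 Helios+ libraries fell within the Helios− range. On the log2 scale the change was 0.25 ± 0.08 (SE; limma adjusted p = 0.0297), the smallest among the members that were called. The call was lost when any 1 of Helios− replicates 2 and 5 and Helios+ replicates 3, 4 and 5 was dropped (limma adjusted p from 0.0678 to 0.0829). The blocked fit gave a limma adjusted p of 0.0033. Nfkbie lies on chromosome 17 (45555703 to 45563169, plus strand).

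The other 3 inhibitors were not called. Nfkbib, the gene of IκBβ, ranged from 122 to 174 normalized counts in Helios− (median 154) and from 132 to 164 in Helios+ libraries (median 147). Its log2 change of 0.0065 ± 0.12 (SE; limma adjusted p = 0.975) turned to −0.052 with quantile normalization and −0.0070 with DESeq2. Of its exon bases, 16.4% are shared with Ccer2 or Sirt2. Nfkbid, whose product IκBNS is known to favour Foxp3 expression in developing Treg cells, had 326, 211, 229, 266 and 258 normalized counts in Helios− and 279, 261, 262, 300.2 and 284 in Helios+ libraries. Its Helios− libraries were more spread than its Helios+ libraries, with Helios− replicate 1 above all others, and the log2 change was 0.12 ± 0.11 (SE; limma adjusted p = 0.467). Nfkbiz, the gene of IκBζ, ranged from 762 to 1019 and from 841 to 969, with a log2 difference of 0.08 ± 0.09 (SE, limma adjusted p = 0.566). The upper ends of the 95% intervals were 0.26 for Nfkbib, 0.34 for Nfkbid and 0.28 for Nfkbiz. The intervals thus include changes as large as that of Nfkbie.

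The order of levels was compared per kilobase of annotated exon, since the genes differ in length. Nfkbia came first in both populations, at 351 ± 58.2 normalized counts per kb in Helios− and 474 ± 61.7 in Helios+ cells (SD, n = 5). Rela was second, at 264 ± 33.9 and 252 ± 15.5, and stood above all other subunits in every library. Nfkb1, the first subunit by raw reads, had 160 ± 7.45 and 200.3 ± 14.4 per kb. Nfkbiz (173 ± 26.5 and 182 ± 10.2) and Nfkbie (152 ± 11.5 and 180.1 ± 15.6) overlapped with Nfkb1 in both populations, so these 3 have no set order in either. Nfkb2 (112 ± 7.49 and 149 ± 14.1) and Nfkbid (110 ± 18.7 and 118 ± 6.94) followed. Nfkbib, Rel and Relb were lowest, and in Helios− cells their ranges overlapped, at 67.9 ± 10.995, 55.3 ± 5.30 and 53.2 ± 6.68 per kb. In Helios+ cells Rel reached 77.6 ± 5.34 and Relb 76.4 ± 13.2, while Nfkbib was at 67.7 ± 5.31. There too the range of Relb (59.9 to 90.7) overlapped those of Rel (71.7 to 81.8) and Nfkbib (60.9 to 75.7). Lengths are those of all exons in GENCODE M21, so a gene with long rarely used exons is set too low.

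The makeup of the family was also described within each library, as a ratio to Rela per kb, which does not depend on the size factor. Rel per Rela was 0.244, 0.196, 0.189, 0.211 and 0.215 in Helios− and 0.314, 0.287, 0.303, 0.312 and 0.324 in Helios+ libraries. Every Helios+ library lay above every Helios− library. Relb per Rela went from 0.203 ± 0.028 to 0.302 ± 0.045 (SD, n = 5), Nfkb1 per Rela from 0.612 ± 0.063 to 0.796 ± 0.061 and Nfkb2 per Rela from 0.427 ± 0.037 to 0.593 ± 0.059, and these groups did not overlap either. These ratios repeat the differences above on another scale and were not tested. Nfkb2 per Nfkb1 overlapped, at 0.700 ± 0.057 and 0.747 ± 0.089. Nfkbia per Rel overlapped as well, at 6.45 ± 1.62 and 6.15 ± 1.02. Nfkbie per Rel was lower in each Helios+ library (2.26 to 2.40) than in any Helios− library (2.49 to 2.97). So the level of IκBε transcripts relative to c-Rel transcripts was lower, although both were called higher.

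**Figure D3:**
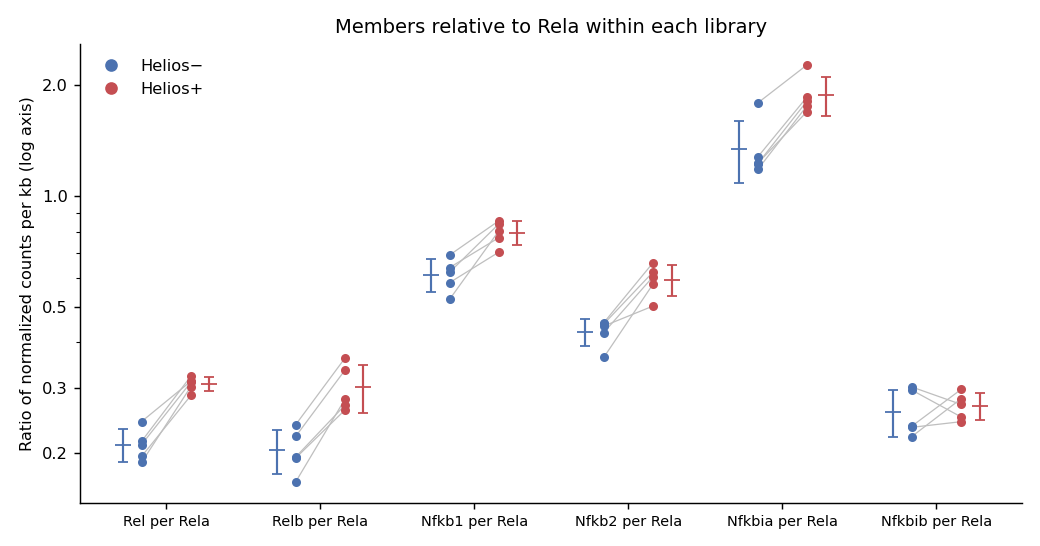
Ratio of normalized counts per kb of exon of 6 members to Rela (log axis) by library (5 points per group), with grey lines joining libraries of the same replicate number and bars for the mean and SD. The ratios of Rel, Relb, Nfkb1 and Nfkb2 separate the groups, and those of Nfkbia and Nfkbib overlap.

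Genes that carry signals to NF-κB were described from lists of the pathway, which were chosen with earlier results of these data known. The receptor-proximal and IKK list held 30 genes, of which 3 were higher, 5 lower and 22 not called, with a median log2 change of −0.013. The 8 calls among 30 genes are near the 24.8% over all genes, so the list as a whole was called about as often as other genes. With the replicate block 4 were higher and 7 lower, where 18.9% and 18.5% of all genes were. Prkcq, the kinase PKCθ that links the T cell receptor to NF-κB, had 3567, 3795, 3256, 3420 and 3365 normalized counts in Helios− and 2312, 2449, 2436, 2421 and 2539 in Helios+ libraries, a log2 difference of −0.52 ± 0.06 (SE, limma adjusted p = 1.5e-05). The groups did not overlap. Ikbkb, the catalytic IKK subunit of the canonical branch, had 1166 ± 236 and 816 ± 94.8 (SD, n = 5), a log2 difference of −0.50 ± 0.12 (SE, limma adjusted p = 0.0078). Its groups overlapped, and each Helios+ library was below its Helios− partner. Prkcq and Ikbkb were thus lower in the population where 4 of the 5 subunit genes were higher.

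The partners of these genes were measured too. Malt1, a protease that works with Bcl10, was named after its values were seen. It had 1286 ± 170 and 1048 ± 125 normalized counts (SD, n = 5), a log2 difference of −0.29 ± 0.10 (SE, limma adjusted p = 0.0384). Its call was lost when any 1 of Helios− replicates 1, 2 and 4 and Helios+ replicates 3 and 5 was dropped (limma adjusted p from 0.0593 to 0.106), and with TMM scaling, quantile normalization and edgeR. These fits had no replicate block, and with the block over all 10 libraries Malt1 was called lower (limma adjusted p = 0.00017). Bcl10 itself was not called (limma adjusted p = 0.374), nor was the IKK subunit Ikbkg (0.55). The IKK subunit Chuk was not called without the block (limma adjusted p = 0.113) but was lower in all 5 pairs and called lower with it (limma adjusted p = 0.0055). Traf5, an adaptor of TNF receptors (limma adjusted p = 0.0098), and Ripk1, a kinase of TNF receptor signalling (limma adjusted p = 0.0424), were the other lower genes of the list. The call of Traf5 was lost without both libraries of replicate 3 or of replicate 5 (limma adjusted p up to 0.0528). The 3 higher were Traf2, another such adaptor, with a log2 difference of 0.37 ± 0.08 (SE, limma adjusted p = 0.0031), Irak4 and Fbxw11. With single libraries dropped, the call of Irak4 was lost in 5 of 10 cases (Helios− replicates 4 and 5, Helios+ replicates 2 to 4; limma adjusted p from 0.0508 to 0.0686). That of Fbxw11 was lost in 9, all but Helios− replicate 5 (0.0509 to 0.113), and with no filter on low values (0.0561). Traf2 alone was higher in 4 cases of a dropped library, Helios− replicate 4 and Helios+ replicates 2 to 4. The call of Ripk1 was lost in 7, Helios− replicates 2 to 4 and Helios+ replicates 1, 2, 4 and 5 (0.0631 to 0.109), and with no filter on low values, edgeR, TMM scaling and quantile normalization. The last 3 of these settings each called 3 genes of the list lower. The count of lower genes was also 3 without Helios− replicate 2 or 4 or Helios+ replicate 5. With the replicate block over all 10 libraries Traf5, Ripk1, Irak4 and Fbxw11 kept their calls (limma adjusted p = 0.0031, 0.0079, 0.0036 and 0.012).

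**Figure D4:**
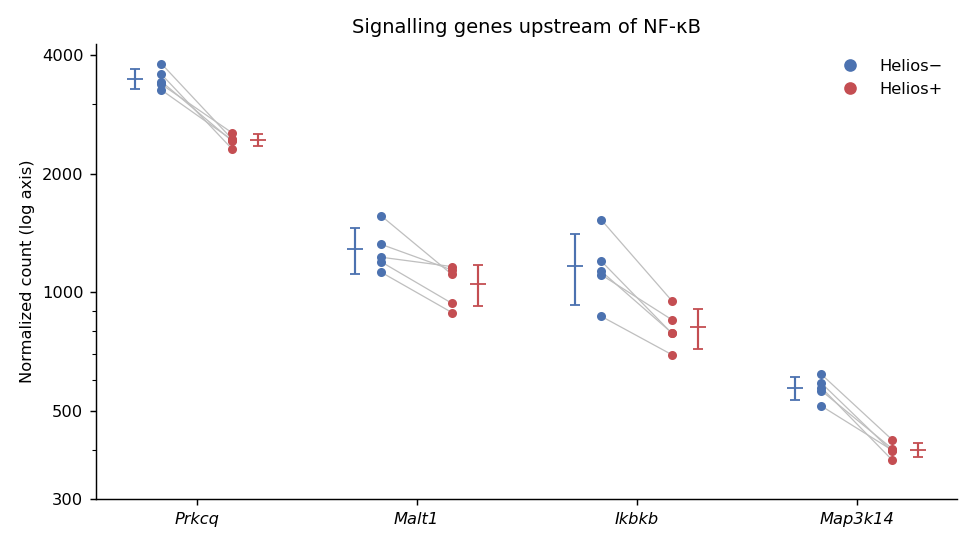
Normalized counts (log axis) of Prkcq, Malt1, Ikbkb and Map3k14 by library (5 points per group), with grey lines joining libraries of the same replicate number and bars for the mean and SD. Each gene is lower in the Helios+ library of all 5 pairs, and the groups of Malt1 and Ikbkb overlap.

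The noncanonical list held 16 genes, 14 of them tested, with 6 higher and 1 lower, beside 14.1% and 10.7% of all genes, and a median log2 change of 0.14. The 1 lower gene was Map3k14, which encodes NIK. It had 589, 515, 564, 574 and 619.9 normalized counts in Helios− and 396, 399, 403, 377 and 424 in Helios+ libraries, groups that did not overlap. The log2 change was −0.52 ± 0.07 (SE; limma adjusted p = 3.4e-05). Nfkb2 and Relb, which act downstream of NIK, had the opposite direction. With the replicate block 7 genes of the list were higher and 3 lower, where 18.9% and 18.5% of all genes were. Quantile normalization called 2 of the list lower. Among the receptors that feed this branch, Tnfrsf9 (4-1BB) had a log2 change of 2.79 ± 0.13, Tnfrsf1b (TNFR2) of 1.84 ± 0.10, Tnfrsf4 (OX40) of 1.82 ± 0.09 and Tnfrsf18 (GITR) of 1.13 ± 0.09 (SE). Cd27, the most abundant gene of this list, was not called (limma adjusted p = 0.421). Otud7b, a deubiquitinase that restrains noncanonical signalling by sparing Traf3, rose from 362 ± 20.04 to 521 ± 7.31 normalized counts (SD, n = 5; limma adjusted p = 1.5e-05). Ltbr and Tnfrsf11a fell under the filter. Some genes of this list also stand on the receptor-proximal and IKK list, among them Traf2, called higher, and Chuk.

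Brakes of the pathway other than the 5 inhibitors were mixed. Of 23 tested, 4 were higher and 1 lower, with a median log2 change of 0.09. The count of higher genes is near the 14.1% over all genes, and that of lower genes is under the 10.7%. With the replicate block 9 were higher and 4 lower, where 18.9% and 18.5% of all genes were. Tank, a binding partner of TRAF proteins, had 784 ± 29.5 and 1094 ± 51.3 normalized counts (SD, n = 5), a log2 difference of 0.48 ± 0.06 (SE, limma adjusted p = 1.8e-05). Tnip1, which works with the ubiquitin-editing enzyme A20, had 2331 ± 153 and 2774 ± 85.9 (limma adjusted p = 0.0078), and its call was lost without both libraries of replicate 5 (limma adjusted p = 0.0559). Its relative Tnip3 was higher too but rested on 1 to 21 reads per library. Rnf11, which also works with A20, was called higher (limma adjusted p = 0.0269), a call lost when any 1 of Helios− replicates 1, 4 and 5 and Helios+ replicates 3 and 5 was dropped (limma adjusted p from 0.0506 to 0.0782), and with quantile normalization (0.0725). Itch was lower (limma adjusted p = 0.0240), a call lost when any 1 of Helios− replicates 2 and 5 and Helios+ replicates 1 and 5 was dropped (limma adjusted p from 0.0538 to 0.0635). With the replicate block Rnf11 and Itch kept their calls (limma adjusted p = 0.0081 and 0.0020).

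Tnfaip3, the gene of A20, and Bcl3, an atypical IκB protein of the nucleus, were not called without the replicate block over all 10 libraries and were called with it. Tnfaip3 had 654 ± 205 and 894 ± 231 normalized counts (SD, n = 5), a log2 difference of 0.47 ± 0.19 (SE, limma adjusted p = 0.107, and 9.2e-07 with the replicate block). Bcl3 had 177, 152, 207, 242 and 238 in Helios− and 214, 188, 231, 312 and 264 in Helios+ libraries, a log2 difference of 0.25 ± 0.15 (SE, limma adjusted p = 0.259, and 0.0157 with the replicate block). Both were higher in the Helios+ library of all 5 pairs, and the groups overlapped for both. Without Helios− replicate 2 Tnfaip3 was called higher also without the block (limma adjusted p = 0.0059), and without both libraries of replicate 2 as well (0.0014). Relb was lowest in replicate 1 and Nfkbia highest in replicate 2 in both populations. In Helios− cells, however, Relb was nearly equal in replicates 1 and 2 (180.4 and 181.0 normalized counts).

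Genes that NF-κB is known to induce in lymphocytes were mostly higher where they were called. Of 33 tested, 16 were higher, 2 lower and 15 not called, with a median log2 change of 0.30, beside 14.1% and 10.7% of all genes. The list was chosen with earlier results of these data known, so these counts are a description only. With the replicate block 20 were higher and 4 lower, where 18.9% and 18.5% of all genes were. Cd83, a surface protein of activated lymphocytes, had 125 ± 17.3 and 749 ± 97.2 normalized counts (SD, n = 5; limma adjusted p = 4.6e-10). Cd44, an adhesion receptor of activated T cells, had 694 ± 62.6 and 1442 ± 154 (limma adjusted p = 1.9e-07). Il2ra, the alpha chain of the interleukin-2 receptor and the most abundant of the list, had 3900 ± 269 and 4648 ± 397 (limma adjusted p = 0.0249), a call lost when Helios− replicate 4 or any 1 of Helios+ replicates 2 to 5 was dropped (limma adjusted p from 0.0518 to 0.0697). The blocked fit over all libraries gave Il2ra a limma adjusted p of 5.2e-05. The 2 lower were Ccr7, the homing receptor of resting T cells, with a log2 change of −0.72 ± 0.12 (SE), and Cflar, an inhibitor of caspase activation, with −0.34 ± 0.06 (SE). Among the targets that were not called, Tnf, Lta, Birc3 and Traf1 had limma adjusted p of 0.966, 0.79, 0.574 and 0.508. Ltb was not called without the block (limma adjusted p = 0.556) but was higher in all 5 pairs and called higher with it (limma adjusted p = 0.011). Many of these genes have other inducers in activated T cells, and Bcl3, Birc3, Cd40, Ikbke, Tnfaip3, Tnfrsf4, Tnfrsf9, Tnip1 and Traf1 also stand on the lists above.

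**Figure D5:**
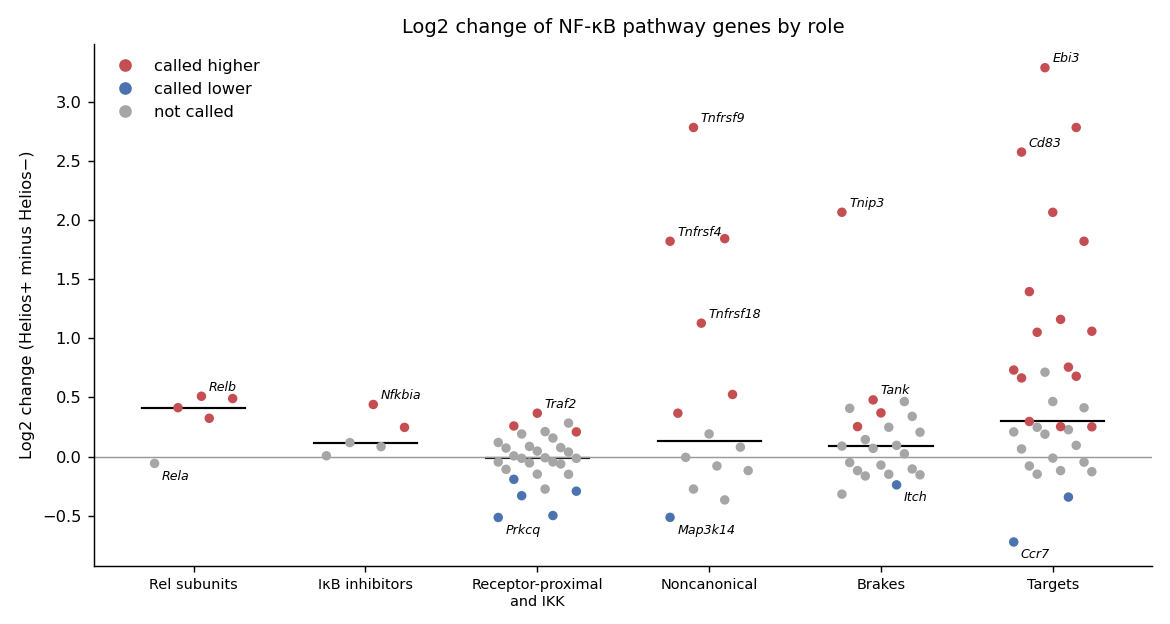
Log2 change between Helios+ and Helios− libraries of the tested genes of 6 lists, ordered by role from the Rel subunits to known targets, with a point per gene coloured by its limma call and a black line at the median of each list. Medians are 0.41 for the subunits, 0.12 for the inhibitors, −0.013 for the receptor-proximal and IKK genes and 0.30 for the targets.

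For each member the 2 genes most like it were taken by Pearson's r of log2(normalized count + 1) over the 10 libraries, among 8497 genes with a mean of at least 50. The 10 libraries include both populations, so r also reflects the difference between them, and it is given as a description. Rel was closest to Src, a tyrosine kinase gene (r = 0.985), and Aig1 (0.981). Nfkb1 was closest to Unc119 (0.969) and Atl3 (0.965), Nfkb2 to Rnf219 (0.966) and Celf2 (0.953), and Relb to Dnajc10 and Faim (both 0.952). Nfkbia was closest to Pkp3 (0.961) and Tssc1 (0.955), and Nfkbie to Invs (0.959) and Wbp1 (0.932). Within the family the nearest pairs were Nfkb1 with Nfkbia (0.902) and Rel with Nfkbie (0.901). Among the members that were not called, Rela was closest to Tubb4b (0.936) and Slc39a9 (0.932), Nfkbib to 5031439G07Rik (0.898) and Ccdc132 (0.868), Nfkbid to Blm (0.943) and D3Ertd751e (0.939), and Nfkbiz to Herc4 (0.958) and 5530601H04Rik (0.956). Within the family Rela was nearest to Nfkbib, at 0.471, and Nfkbiz to Nfkbid, at 0.260.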

How the data were processed

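RNA-seq of 10 libraries was analysed. Per the labels' protocols, libraries were made from total RNA with a stranded kit for picogram input. The submitters' processing notes name mm10, HISAT2 2.0.4, HTSeq and DESeq2, without roles. They name neither an annotation nor a strand setting. The authors deposited normalized counts, a signal that is never negative. All values (100%) were whole multiples, within 0.001, of the smallest value of their library, so whole reads were recovered. Genes with a mean of at least 10 (10718, leaving out 2534) were tested with limma 3.58.1 in R 4.3.3 (trend, robust) on log2(value + 1), with the group as the only term and Benjamini-Hochberg adjustment over all of them, after a check on simulated data. Same-numbered libraries deviated together (correlations 0.481, 0.194, 0.388, 0.161 and 0.145 for replicates 1 to 5, each above the minimum of 0.1), so the replicate block was read as a pairing. The highest correlations with a library of another number were 0.099, −0.00078, 0.117, 0.099 and 0.117. Unlike numbers could thus also pass the minimum, and replicate 5 stood little above them. Alternatives used edgeR 4.0.16 (1563 genes higher, 1074 lower) and DESeq2 1.42.0 (1594 and 1252) on recovered reads, beside 1512 and 1143 by limma, other pseudocounts (0.5 and 5), filters and scalings, and left-out libraries. Members, lists and the naming rule were chosen with earlier results of these data known. Named genes were the 10 members, Ikzf2, Foxp3, Cd4, Bcl3, the 4 smallest p and the most abundant gene of each pathway list, the 2 most abundant markers of other cells, the 2 nearest genes by r, and genes called in a direction with 5 or fewer calls. Malt1, Ripk1, Bcl10, Chuk, Ikbkg, Otud7b, Tnfaip3, Ltbr, Tnfrsf11a, Gzma, Lyz2 and the uncalled targets were named after their values were seen. Coordinates and exon lengths are from GENCODE M21 (GRCm38), the build of mm10. A gene of the receptor-proximal and IKK list is not reported here and was left out of that list.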

Additional observations from a re-analysis of the deposited data

How the results depend on the processing

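Alternatives were the replicate block, pseudocounts of 0.5 and 5, no filter, a mean of at least 50, TMM scaling, quantile normalization, edgeR, DESeq2, and leaving out each library or both libraries of a replicate number. Fits with libraries left out had the group alone, without the block. The 6 higher and 0 lower members were found in all 9 settings that kept every library, with 4 to 6 higher and 0 lower when libraries were left out. The direction of Rela ran from −0.092 to 0.014 over the left-out libraries, that of Nfkbib from −0.058 to 0.078, that of Foxp3 from −0.0061 to 0.049 and that of Cd4 from −0.096 to 0.024 (log2 change). Quantile normalization gave −0.052 for Nfkbib and 0.044 for Cd4, and DESeq2 gave −0.0070 for Nfkbib. With the replicate block, 3 noncanonical genes, 4 brakes and 4 targets were lower and 9 brakes were higher. In that fit 1979 of all genes tested (18.5%) were lower and 18.9% were higher. This pairing changed the call of no member. Of the other genes named it added higher calls for Tnfaip3, Bcl3, Ltb, Cd3e and Lyz2 and lower calls for Chuk, Ikbke, Cd22 and Cd8b1. TMM scaling, quantile normalization and edgeR each called 3 receptor-proximal and IKK genes lower. Quantile normalization called 2 noncanonical genes and DESeq2 2 brakes lower. Over left-out libraries the receptor-proximal and IKK list had 1 to 3 higher and 2 to 5 lower genes, the noncanonical list 1 to 3 lower, the brakes 2 to 5 higher and 0 to 2 lower, and all genes 748 to 1293 lower, the lowest without both libraries of replicate 4. The cause was not tested. The median log2 change of all genes stayed between −0.048 and −0.0024 in every setting. Depth limits Tnip3, with 1 to 21 reads per library, more than any member, whose lowest read number was 105.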
